A study of Mus musculus with 8 samples.

Results

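The genes described here are 9 complement regulators of the mouse: Cd55, Cd59a, Cd59b, Cr1l, Cfi, C4bp, Vtn, Clu and Serping1. They were chosen by name, as the probes whose gene name on the array is one of these or an older name (Crry for Cr1l). No cut on their values was used, though earlier results of these data were known. The array carries 15 probes for these 9 genes, of 41174 probes in all, and the whole array names 28477 genes. RNA was measured in liver from C57Bl/6 mice that lack AIM (AIM-/-) or carry it (AIM+/+), after 0 (normal chow), 6, 12 or 20 weeks of high-fat diet. One array with 1 RNA sample was hybridised per genotype and time, 8 arrays in all, so no group has a replicate. The groups are AIM-/- on chow and at 6, 12 and 20 weeks of diet, and AIM+/+ at the same times. The labels give neither the age nor the sex of the mice, nor the extent of the deletion.

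Complement is a chain of plasma proteases and pore-forming proteins, most of them made by hepatocytes, that opsonises and lyses targets. Host cells carry regulators on their surface that dissolve the C3 convertases or block the final pore, and plasma holds further regulators that work in the fluid phase. AIM (apoptosis inhibitor of macrophage, encoded by Cd5l) is a protein secreted by tissue macrophages, and it is reported to bind such regulators on cancer cells, an action on proteins that RNA levels do not show. The question asked of the arrays was whether liver RNA of these regulators differed with AIM genotype or with the diet.

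Of the regulators, 4 act on the cell surface. Cd55 (decay-accelerating factor) and Cr1l (Crry, a rodent regulator) act on the convertases, and Cd59a and Cd59b, neighbouring paralogs, block assembly of the membrane attack complex. The other 5 are secreted. Cfi is the protease factor I that cleaves C3b and C4b, C4bp is the C4b-binding protein that serves as its cofactor, Vtn (vitronectin) and Clu (clusterin) bind the nascent terminal complex, and Serping1 is the C1 inhibitor.

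Upstream sequence is shown for the 3 regulators whose 6 diet arrays did not overlap the 2 chow arrays (values further on), so that their start regions can be seen side by side. The same held for 21.0% of all genes tested, and for Cd59a only on its brighter probe. Each line holds the 250 bases before the transcript start that the RefSeq promoter table (GRCm38.p6) lists for the gene. Capitals mark letters that match TATAAA on either strand, which are not shown to act as a TATA box. RefSeq's gene records begin at 104095753 for Cd59a and 104069781 for Cd59b, so the Cd59a window reaches into its gene record and the Cd59b window lies inside its own, while the Vtn window ends just before its gene record at 78499120.
Cd59a promoter, chr2:104095551-104095800 (+ strand): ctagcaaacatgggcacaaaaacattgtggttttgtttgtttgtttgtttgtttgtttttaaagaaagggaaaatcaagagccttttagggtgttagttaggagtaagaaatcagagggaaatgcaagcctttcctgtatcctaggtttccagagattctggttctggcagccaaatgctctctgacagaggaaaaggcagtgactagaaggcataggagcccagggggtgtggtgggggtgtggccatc
Cd59b promoter, chr2:104070816-104071065 (+ strand): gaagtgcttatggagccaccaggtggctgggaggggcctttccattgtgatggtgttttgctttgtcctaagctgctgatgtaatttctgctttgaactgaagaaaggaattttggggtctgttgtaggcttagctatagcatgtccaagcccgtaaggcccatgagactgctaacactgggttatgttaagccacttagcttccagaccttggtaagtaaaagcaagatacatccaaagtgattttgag
Vtn promoter, chr11:78498870-78499119 (+ strand): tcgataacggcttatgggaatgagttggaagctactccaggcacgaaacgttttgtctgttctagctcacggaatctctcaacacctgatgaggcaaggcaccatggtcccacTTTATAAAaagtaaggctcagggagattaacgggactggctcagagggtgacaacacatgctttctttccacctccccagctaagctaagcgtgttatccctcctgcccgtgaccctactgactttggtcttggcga
Promoters of 6 of the 9 regulators were matched. On both strands the windows were searched for the TATA box (TATAAA), the CCAAT box (CCAAT), the GC box (GGGCGG), the interferon-activated GAS element (TTCNNNGAA), the PPAR response element (DR1) and the HNF1 site. A match describes letters and is no site shown to act, and no match says only that these letters are not in this window. The Vtn window held 2 TATA box matches, which overlap on opposite strands, and TATAAA occurs in 12.4% of 32851 promoters of the same length. The Cd55 window held 2 GC boxes (in 32.7% of all promoters). The windows of Cd59a, Cd59b, Cr1l and C4bp held 0 matches to any of these motifs, of which CCAAT occurs in 33.8% and GAS in 7.02% of promoters, the PPAR element in 0.0335% and the HNF1 site in 0.00913%.

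The regulators were measurable in every liver. Values are log2 signals minus the 75th percentile of the array, so that 0 is the level of that percentile and 1 unit is 2-fold. For each of the 9 genes the brightest probe was well above background on 8 of 8 arrays, by the scanner software's mark, and none was saturated. Of the 15 probes 11 passed the filter (well above background on at least 2 arrays) and 4 were not well above background on any array, namely the other probes of Cd59b, Cr1l and C4bp and a Cd55 probe. That Cd55 probe, of accession AF143541, lies apart from the other Cd55 probes, and Cd55b (Daf2) is the neighbouring gene, so its target was not settled. Signals of different probes cannot be ranked, so no order of abundance among the regulators is given.

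On each array between 18586 and 21119 of the 41174 probes passed the background mark, and the test ran over 15338 genes. Cd5l separated the genotypes, with 90.7, 140, 171 and 150 in AIM-/- livers at 0, 6, 12 and 20 weeks, against 10544, 19978, 30201 and 23802 in AIM+/+ livers (processed signal). Albumin (Alb) signals lay between 350489 and 386920. The labels name liver and no tumour. Afp, a fetal and tumour marker, lay between 80.9 and 453 (processed signal). Of the 6 measured genes on a list of tumour and fetal markers, Afp included, 5 were higher on the diet than on chow. Cdkn3 (log2 difference 2.23) and Mki67 (2.44) passed the diet test described below, as did 2.33% of all genes, and Afp was lower (-0.88). The list summed to a scaled signal of 2.78 in AIM-/- and 2.05 in AIM+/+ livers on chow, and to 9.54 and 4.99 at 12 weeks. At 20 weeks the sums were 3 and 3.65. Both 20-week arrays lacked Y-linked signal that the other 6 had (summed scaled signal of 3 genes 0.0504 and 0.0645 at 20 weeks, against 8.82 to 11.3 earlier), so 20 weeks cannot be told apart from a change of sex. Each genotype was hybridised on a slide of its own, so slide and genotype cannot be told apart either. In whole liver, fewer cells of a type and less RNA per cell cannot be told apart.

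**Figure D1:**
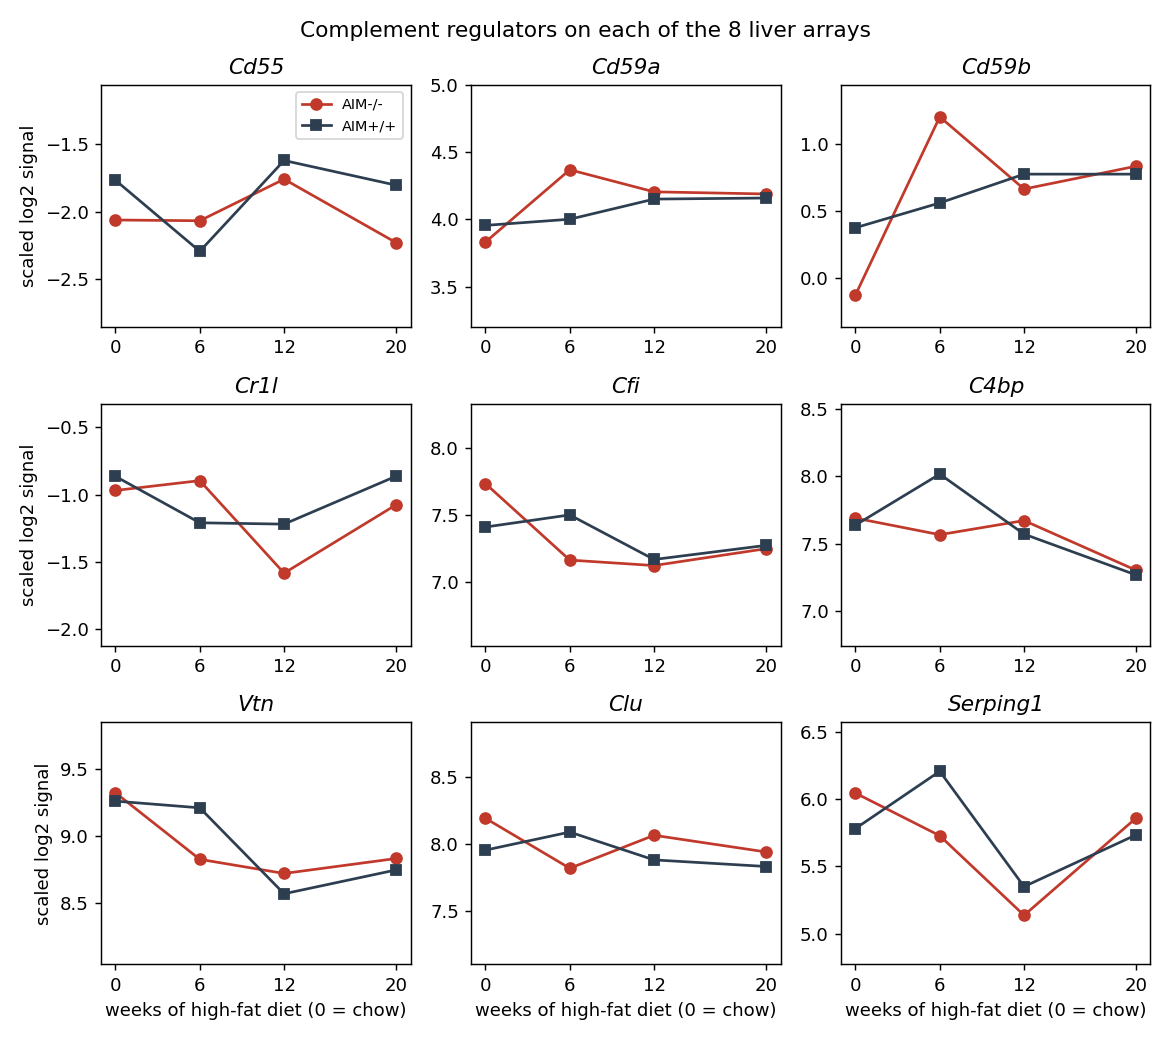
Scaled log2 signal (y axis, 0 is the array's 75th percentile) of the brightest probe of each regulator against weeks of high-fat diet (x axis), 1 point per array, AIM-/- as red circles and AIM+/+ as dark squares. Every panel spans the same height of 1.8 log2 units, and the genotypes cross at least once in all 9 panels.

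No steady difference by AIM genotype was seen in the RNA of these 9 regulators, in a test that few of all genes passed. None passed the test over all weeks, 3 had a positive and 6 a negative difference, and their median was -0.02 against 0.00 over all genes tested. By limma, with adjusted p under 0.05, 0 of 9 were called (adjusted p = 1 for each, 0 with an unadjusted p under 0.05), against a background of 0.0326% of genes called. The arrays of both genotypes overlapped for 9 of 9 regulators, while for 2.27% of all genes they did not. The 95% intervals of the 9 differences lay between 1.45-fold higher for Cd59b and 0.701 of the wild-type level for Cd55, so each excluded a 2-fold difference. Weeks stand in for replicates in these intervals, which are not adjusted for the number of genes.

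Among the surface regulators, Cd55 averaged -2.03 ± 0.20 in AIM-/- livers and -1.87 ± 0.29 in AIM+/+ livers (SD over 4 weeks, scaled log2). Its difference of -0.16 (SE 0.14, limma adjusted p = 1) was the largest of the 9 in size, and it was lower in AIM-/- at 3 of 4 times. The second Cd55 probe (accession AK030285) was well above background on 1 of 4 AIM-/- arrays and on 3 of 4 AIM+/+ arrays, and its difference of -0.14 (SE 0.27) rests partly on background. Cr1l had -0.97, -0.90, -1.59 and -1.07 in AIM-/- livers at 0, 6, 12 and 20 weeks, against -0.87, -1.21, -1.22 and -0.86 in AIM+/+ livers. The difference of -0.09 (SE 0.14) was smaller than the spread between weeks.

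Cd59a averaged 4.15 ± 0.23 in AIM-/- livers and 4.07 ± 0.10 in AIM+/+ livers, and Cd59b 0.64 ± 0.56 and 0.62 ± 0.19 (SD, 4 weeks each). Their differences were 0.08 (SE 0.12) and 0.02 (SE 0.20). The means were close while the spread was wider in AIM-/-, where both the lowest array (chow) and the highest (6 weeks) of each CD59 gene stood.

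The secreted regulators also differed little by genotype. Cfi averaged 7.32 ± 0.28 in AIM-/- and 7.34 ± 0.15 in AIM+/+ livers, Vtn 8.92 ± 0.27 and 8.94 ± 0.34, and Clu 8.0 ± 0.16 and 7.94 ± 0.11. C4bp averaged 7.56 ± 0.18 in AIM-/- and 7.62 ± 0.31 in AIM+/+ livers, and Serping1 5.69 ± 0.39 and 5.77 ± 0.35. The 5 differences lay between -0.08 (Serping1, SE 0.15) and 0.06 (Clu, SE 0.12). Cfi lies on chromosome 3, as Cd5l does, with its probe at 129867215 to 129867274 (mm8), 42.4 Mb from that of Cd5l.

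**Figure D2:**
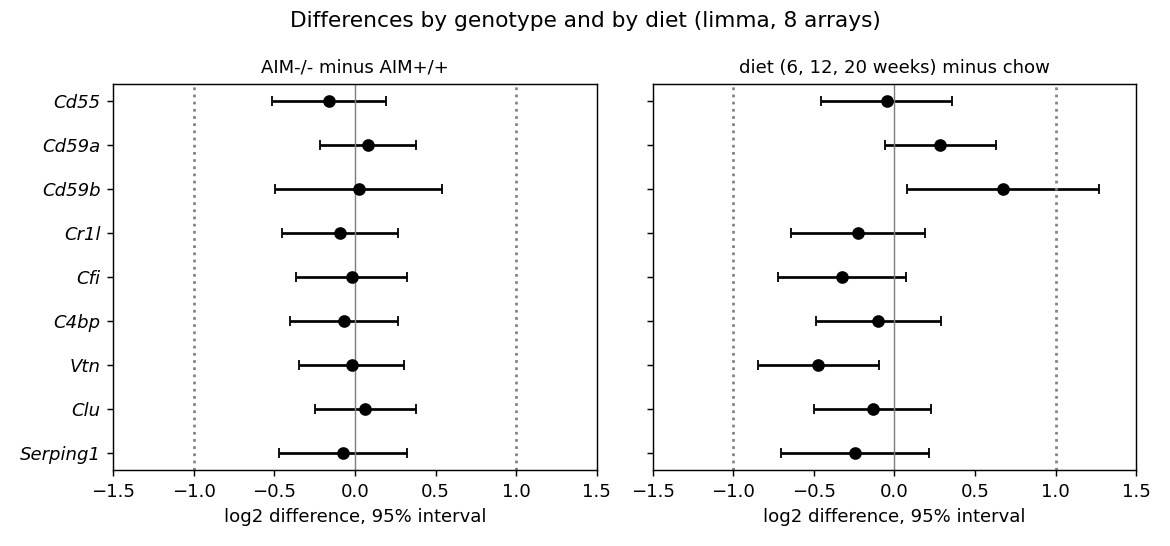
Log2 difference (x axis) of each regulator by genotype (left, AIM-/- minus AIM+/+) and by diet (right, mean of 6, 12 and 20 weeks minus chow), from limma on 8 arrays. Bars are 95% intervals and dotted lines mark 2-fold. All 9 genotype intervals include 0, and the diet intervals of Cd59b and Vtn do not, though neither passed after adjustment over all genes.

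At single times the genotypes differed in opposite ways on chow and at 6 weeks. Each value sets a lone array against another and carries no test. On chow all 4 surface regulators were lower in AIM-/- (median -0.21, from -0.50 for Cd59b to -0.10 for Cr1l) and all 5 secreted ones were higher (median 0.24, from 0.05 for C4bp to 0.32 for Cfi). At 6 weeks the signs were turned round: all 4 surface regulators were higher in AIM-/- (median 0.34, from 0.23 for Cd55 to 0.64 for Cd59b) and all 5 secreted ones lower (median -0.38, from -0.48 for Serping1 to -0.27 for Clu). At 12 weeks 1 of 4 surface and 3 of 5 secreted regulators were higher, and at 20 weeks 2 of 4 and 4 of 5.

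All of these differences were small. Of 36 (9 genes at 4 times), 0 reached 2-fold, and the largest was 1.56-fold, for Cd59b at 6 weeks. Among all genes 7.25% were at least 2-fold apart on chow, 6.57% at 6 weeks, 4.56% at 12 weeks and 4.16% at 20 weeks. The median size of the regulators' differences was 0.24 on chow, 0.37 at 6 weeks, 0.14 at 12 weeks and 0.08 at 20 weeks, beside 0.24, 0.24, 0.18 and 0.16 over all genes.

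The secreted regulators are among the brightest probes, and at 6 weeks bright probes as a whole stood lower in AIM-/-. Of 803 genes at least as bright as Serping1, 24.5% were higher in AIM-/- at 6 weeks (median -0.19), and 49.1% on chow (median -0.00). Of the 9786 genes in the brightness range of the surface regulators, 46.2% were higher at 6 weeks (median -0.03) and 53.6% on chow (median 0.03). At 12 weeks 44.3% of the 803 and 50.1% of the 9786 genes were higher in AIM-/-. At 20 weeks the shares were 73.3% and 56.8%, so most bright genes were then higher, as most secreted regulators were. On the scaled values all 5 measured hepatocyte markers were also lower in AIM-/- at 6 weeks (median -0.33), while 3 of 5 were higher on chow. With quantile normalization, which evens out the brightness of arrays, the secreted regulators still were lower 5 of 5 times at 6 weeks, with a smaller median of -0.21, and the surface regulators higher 4 of 4 times (median 0.38). With normexp background correction 3 of 4 surface regulators were higher at 6 weeks, and Cd55 had -0.05. Array scaling also enters the 6-week values. The 75th percentile taken off was 8.24 for the AIM-/- and 7.87 for the AIM+/+ array (log2). Before scaling, Cfi (43335 and 42451) and Clu (68168 and 63757) were higher in AIM-/- than in AIM+/+ (processed signal). Vtn (136787 and 138411), C4bp (57208 and 60678) and Serping1 (15993 and 17302) were lower. Of the hepatocyte markers, Alb (371256 and 361027), Ttr (8597 and 7019) and Hnf4a (2870 and 2292) were higher in AIM-/- before scaling. Apoa1 (136202 and 153841) and Cps1 (17129 and 23265) were lower. The part of scaling, brightness or hepatocyte RNA in the 6-week pattern was not tested further.

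The AIM-/- array at 6 weeks also differed from its AIM+/+ partner in some genes that mark liver sex. The male-biased Hsd3b5 had a processed signal of 154 in AIM-/- and 9996 in AIM+/+ livers at 6 weeks. The female-biased Cyp2b9 had 11295 and 59.4, while Elovl3, another male-biased gene, had 11440 and 4135. The male-biased Cyp4a12a (4467 and 4166) and Cyp2d9 (151844 and 133703) lay closer together. At 12 weeks both genotypes had low Hsd3b5 (7.84 in AIM-/- and 8.69 in AIM+/+) and high Cyp2b9 (14871 and 18167). Low Hsd3b5 with high Cyp2b9 was thus not particular to the AIM-/- array at 6 weeks. On the scaled log2 values the Y-linked Ddx3y was near equal, with 1.86 in AIM-/- and 1.89 in AIM+/+ livers. Xist, which marks female cells, had -0.87 and -4.41 (processed signal 165 and 11). At 12 weeks the Xist gap went the other way (processed signal 6.29 in AIM-/- and 66.1 in AIM+/+). The Kupffer cell markers summed to a scaled signal of 51.7 in AIM-/- and 73.1 in AIM+/+ livers at 6 weeks, to 52.7 and 48.4 on chow, to 51.4 and 67.3 at 12 weeks, and to 44.9 and 69.4 at 20 weeks, so the gap was not particular to 6 weeks. Their part in the regulators' values was not tested.

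**Figure D3:**
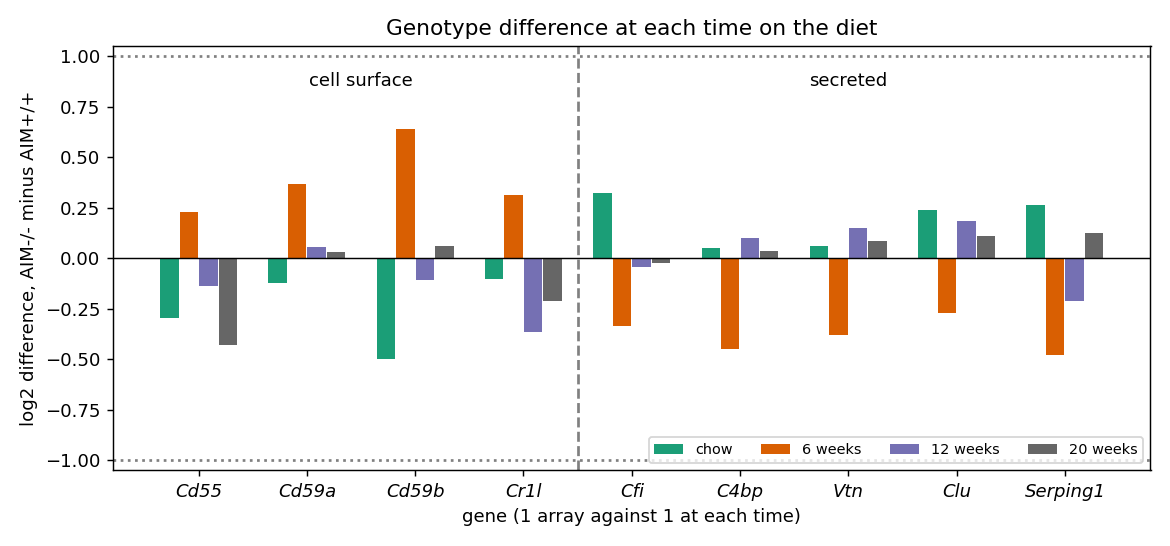
Log2 difference AIM-/- minus AIM+/+ (y axis, dotted lines at 2-fold) of each regulator at chow, 6, 12 and 20 weeks, 1 array against 1 per bar. The 4 cell-surface genes lie left of the dashed line and the 5 secreted genes right of it. The chow and 6-week bars point opposite ways in all 9 genes, and none reaches 2-fold.

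Across the diet, none of the 9 regulators passed the comparison of 6, 12 and 20 weeks with chow. By limma 0 of 9 were called at adjusted p under 0.05 (adjusted p from 0.138 to 0.869), against 2.33% of all genes, and 2 of 9 had an unadjusted p under 0.05, beside 25.2% of all genes. With any 1 of 7 of the 8 arrays left out, 0 genes of all tested were called. The regulators' median difference was -0.14, against -0.02 over all genes, with 2 positive and 7 negative. For 3 of the 9 (Cd59a, Cd59b and Vtn) the 6 diet arrays did not overlap the 2 chow arrays, as was so for 21.0% of all genes. Chow was sampled at 0 weeks only, so diet and time passed cannot be told apart.

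Cd59b had the widest spread over the 8 arrays, 2.51-fold between the lowest and the highest. Its levels at 0, 6, 12 and 20 weeks were -0.13, 1.20, 0.66 and 0.83 in AIM-/- livers and 0.37, 0.56, 0.77 and 0.77 in AIM+/+ livers. Both chow arrays were below all 6 diet arrays, and the AIM-/- array at 6 weeks stood highest. The diet difference was 0.68 (SE 0.23, 95% interval 0.08 to 1.27, limma adjusted p = 0.163). It was 0.33 without the AIM-/- chow array and 1.02 without the AIM+/+ chow array, so the lone chow arrays set much of its size.

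Cd59a showed the same order of chow and diet arrays on a smaller scale. Its brighter probe had 3.83, 4.37, 4.21 and 4.19 in AIM-/- livers at 0, 6, 12 and 20 weeks, and 3.96, 4.0, 4.15 and 4.16 in AIM+/+ livers. The AIM-/- chow array was the lowest and the AIM-/- array at 6 weeks the highest, as for Cd59b. The diet difference was 0.29 (SE 0.13, limma adjusted p = 0.255), and 0.15 without the AIM-/- chow array. The second Cd59a probe gave 0.27 (SE 0.18), but its AIM+/+ level at 6 weeks (0.97) lay below that on chow (1.04), so on that probe the diet and chow arrays overlapped.

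**Figure D4:**
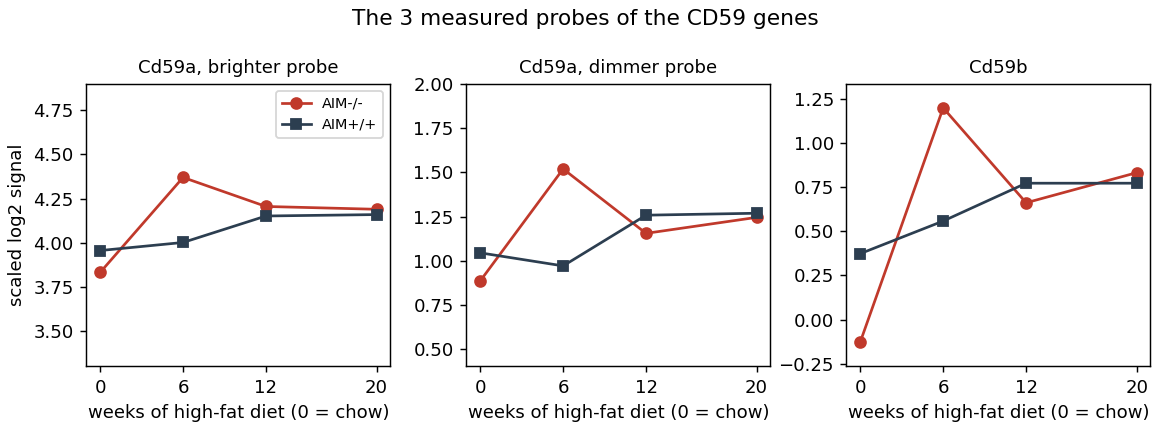
Scaled log2 signal (y axis) of the 2 Cd59a probes and of the measured Cd59b probe against weeks of diet (x axis), AIM-/- as red circles and AIM+/+ as dark squares, 1 point per array. In all 3 panels the AIM-/- chow array is the lowest and the AIM-/- array at 6 weeks the highest. Each panel spans 1.6 log2 units.

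Vtn was lower on the diet in both genotypes, though not past the threshold. It had 9.32, 8.82, 8.72 and 8.83 in AIM-/- livers at 0, 6, 12 and 20 weeks, against 9.26, 9.21, 8.57 and 8.75 in AIM+/+ livers. Every diet array lay below both chow arrays, and the AIM+/+ array at 6 weeks came within 0.05 of its chow partner. The diet difference was -0.47 (SE 0.15, 95% interval -0.85 to -0.10, limma adjusted p = 0.138), and -0.28 with quantile normalization. Cfi followed with -0.32 (SE 0.15, limma adjusted p = 0.261), and its 3 diet arrays in AIM-/- were lower than chow by at least 0.48 while in AIM+/+ they ranged from -0.24 to 0.09 around chow.

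Serping1 was lowest at 12 weeks in both genotypes. It had 6.05, 5.73, 5.14 and 5.86 in AIM-/- livers at 0, 6, 12 and 20 weeks, and 5.78, 6.21, 5.35 and 5.74 in AIM+/+ livers. Both 12-week arrays lay below the other 6. The difference of 12 minus 6 weeks was -0.73 (SE 0.22, 95% interval -1.29 to -0.16, limma adjusted p = 0.21) and that of 20 minus 12 weeks 0.56 (SE 0.22, limma adjusted p = 0.372). Without the AIM+/+ array at 6 weeks the difference of 12 minus 6 weeks was -0.46.

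Of the other regulators, none passed a test over time. Clu was the least variable, with 1.29-fold between its lowest and highest array (9.33% of genes tested had as small a range or a smaller one) and a diet difference of -0.14 (SE 0.14). C4bp had 7.69, 7.57, 7.67 and 7.30 in AIM-/- livers at 0, 6, 12 and 20 weeks, and 7.64, 8.02, 7.57 and 7.27 in AIM+/+ livers, lowest at 20 weeks in both. Its difference of 20 minus 12 weeks was -0.34 (SE 0.18, limma adjusted p = 0.474). Cd55 had -2.06, -2.07, -1.76 and -2.23 in AIM-/- livers and -1.77, -2.30, -1.62 and -1.80 in AIM+/+ livers, with 0.49 for 12 minus 6 weeks (SE 0.20, limma adjusted p = 0.287), and 1.04 (SE 0.38, adjusted p = 0.268 over 21379 probes) on its dimmer probe. Cr1l was lowest at 12 weeks in AIM-/- livers, while in AIM+/+ livers 6 and 12 weeks were near equal, with 0.43 for 20 minus 12 weeks (SE 0.20, limma adjusted p = 0.42) and a diet difference of -0.22 (SE 0.16). The diet difference was -0.05 (SE 0.16) for Cd55, -0.10 (SE 0.15) for C4bp and -0.24 (SE 0.18) for Serping1.

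For 12 minus 6 weeks 0 of 9 regulators were called by limma, against 0% of genes, and 1 (Serping1) had an unadjusted p under 0.05, beside 17.7% of genes. For 20 minus 12 weeks 0 of 9 were called, against 0.117% of genes, and 0 had an unadjusted p under 0.05, beside 13.4% of genes. Over the 8 arrays the regulators spanned a median of 0.72 log2 units, against 0.81 over all genes.

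The response to the diet was not shown to depend on AIM. The interaction of genotype and diet called 0 of 9 regulators by limma (adjusted p = 1 for each, 0 with an unadjusted p under 0.05), against 0% of all genes. Cd59b had the largest value, 0.70 (SE 0.36, 95% interval -0.18 to 1.57), and Cfi the next, -0.46 (SE 0.28, 95% interval -1.13 to 0.22). The intervals are wide, since each chow group is 1 array.

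Other complement genes, taken from lists of components, receptors and further regulators, gave 37 measured members beside the 9. By genotype 0 of 37 passed, with 9 positive and 28 negative (median -0.11, against 0.00 over all genes). By diet 1 of 37 passed (median -0.09, against -0.02 over all genes). Susd4, a membrane regulator of complement, fell by 1.95 on the diet (log2 scale, SE 0.29, limma adjusted p = 0.0497). That call sat at the threshold: with an array or the 20-week pair left out it held in 1 of 9 fits (limma adjusted p from 0.043 to 0.218), and without the 20-week pair the difference was -1.04. Its levels at 0, 6, 12 and 20 weeks were 1.98, 1.16, 0.14 and -1.64 in AIM-/- livers and 1.32, 1.62, -0.47 and -2.60 in AIM+/+ livers, so the lowest were the 20-week arrays that lacked Y-linked signal. For 12 minus 6 weeks and for 20 minus 12 weeks 0 of 37 passed (medians -0.31 and 0.11).

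Correlations among the regulators were computed over the 8 arrays. Among the 5 secreted genes all 10 pairs had a positive Pearson correlation (median 0.64, from 0.27 to 0.89), and of the 20 pairs of a surface and a secreted gene 17 were negative (median -0.42). With the 2 arrays farthest from the first gene's median left out, 6 of the 10 secreted pairs were positive and 4 negative, so that the pattern among secreted genes rests partly on those arrays, and 19 of the 20 mixed pairs were negative. Among the 4 surface genes 3 of 6 pairs were positive, led by Cd59a with Cd59b at r = 0.955 (Spearman's rho 0.85, and r = 0.88 over the 6 arrays left without the 2 farthest from the Cd59a median). These are descriptions over 8 arrays that share slides, weeks and the scaling, with 36 pairs computed and 4 arrays within a genotype, too few for a separate value. Signs were not counted among pairs of other genes of like brightness, so they are not shown to be particular to the regulators.

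The genes most like each regulator over the 8 arrays were found among 11126 genes with a symbol. Cd59b was nearest to Mttp, the microsomal triglyceride transfer protein (r = 0.975), and Tor3a (r = 0.974), and Cd59a to Tor3a (r = 0.961) and Cd59b. Vtn was nearest to Asgr2, a subunit of the hepatocyte asialoglycoprotein receptor (r = 0.991), and Ikzf5 (0.984), and Cfi to the sterol transporter Abcg5 (0.979) and the transcription factor Foxa3 (0.974). Serping1 was nearest to Selenoo (0.989) and Stk11 (0.979), C4bp to Dnajc5 (0.99) and Rae1 (0.985), and Clu to Atp6v1g1 (0.951) and Fam32a (0.946). Cd55 was nearest to Kifc3 (0.935) and Magohb (0.921), and Cr1l to Car11 (0.968) and Phf12 (0.962). These values were picked as the highest of many genes and carry no test.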

How the data were processed

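Liver RNA was hybridised to one-colour Agilent arrays, 1 per genotype and time; whether a sample is 1 mouse or a pool is not stated. The submitters' processing notes name Agilent Feature Extraction 9.5 as the software behind the deposited scanner files. Their processed signal intensity was detrended spatially and multiplicatively, per the file headers (version 9.5.3.1, coordinates on mm8). The deposited value table holds log2 values, whose median absolute difference from those used here was 0.000386 to 0.00213 per array.

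Left out were 1639 control spots and, on each array, 75 to 130 outlier spots. Repeat spots were averaged and log2 signals scaled by each array's 75th percentile. The 21379 probes well above background on at least 2 arrays were kept, and the brightest stood for a gene. Accessions were named through RefSeq (GRCm38.p6, 24375 matched, 16799 not). Genes were fitted with limma 3.58.1 in R 4.3.3 (Python 3.11.15, pandas 2.3.3 and matplotlib 3.10.9 for the rest), with week as a factor plus genotype (3 residual degrees of freedom), or 4 cells of genotype by chow or diet for the interaction (4 residual degrees of freedom). Benjamini-Hochberg adjusted p under 0.05 over 15338 genes was the threshold. With weeks in the place of replicates, p-values reflect how these 8 arrays scatter and not how animals do. The fits were run on simulated data with planted differences and independent noise around each gene's mean. Those data held no slide structure, so they cannot vouch for the p-values given here. All 9 regulators were to be named whatever their values, with the 2 genes most like each. The regulators and lists were chosen with earlier results of these data known. The number of arrays limits the precision.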

Additional observations from a re-analysis of the deposited data

How the results depend on the processing

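Under all 97 alternative counts run, 0 regulators were called in a comparison or 2-fold apart between genotypes at a single week, as in the values reported. The single-week counts were run only with normexp, quantile normalization and the deposited value table. Many alternatives are not separate checks. By genotype, leaving out either array of a week, or its pair, gave the same differences. For 12 minus 6 weeks every alternative called 0 of all genes, so a count of 0 regulators says little there. The alternatives covered normexp background correction, quantile normalization, the deposited value table, no filter or a filter on all 8 arrays, the mean over probes, an intensity trend in eBayes, each array left out, the 20-week or the chow pair left out and, added after seeing the data, every kept probe on its own. Differences past 2-fold that were not called were 1.02 for Cd59b by diet without the AIM+/+ chow array, and 1.04 for 12 minus 6 weeks and -1.01 for 20 minus 12 weeks on the dimmer Cd55 probe. The smallest adjusted p of a regulator was 0.0885 (Vtn by diet, intensity trend). Signs of values near 0 turned. By genotype Cfi had 0.0165 and Vtn 0.0555 with quantile normalization. By diet Cd55 had 0.0832 with the mean over probes and C4bp 0.0427 without the 20-week pair. Cd59a had 0.0669 for 12 minus 6 weeks with quantile normalization, and for 20 minus 12 weeks 0.14 with normexp and 0.0234 with the mean over probes. Cr1l had an interaction of -0.0059 with quantile normalization.

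Leaving out 1 array at a time, values whose sign turned ranged as follows. By genotype Cd59a ranged from -0.0134 to 0.15, Cd59b from -0.18 to 0.20, Cfi from -0.14 to 0.0844, C4bp from -0.12 to 0.0625, Vtn from -0.0787 to 0.10 and Serping1 from -0.19 to 0.0588. By diet Cd55 ranged from -0.14 to 0.0427. For 12 minus 6 weeks Cd59a ranged from -0.20 to 0.18, Cd59b from -0.57 to 0.25, Cfi from -0.40 to 0.0242, C4bp from -0.43 to 0.086 and Clu from -0.20 to 0.24. For 20 minus 12 weeks Cd59a ranged from -0.0387 to 0.0307 and Cd59b from -0.0035 to 0.17. For the interaction Cd55 ranged from -0.0123 to 0.33, Cr1l from -0.13 to 0.22, C4bp from -0.33 to 0.0427 and Vtn from -0.25 to 0.0723. The cause was not tested.

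The background moved more. Genes called by diet numbered 358 in the reported fit, between 0 and 1047 (intensity trend). The count was 0 with any 1 of 7 of the 8 arrays left out, 119 without the AIM+/+ array at 6 weeks, and 0 without the 20-week pair. By genotype they numbered 5, and between 1 and 5 elsewhere, for 20 minus 12 weeks 18, between 1 and 28, and for the interaction 0, between 0 and 111 (no filter). Slide as a block was not run, since each slide holds 1 genotype. No paired analysis was possible because the replicate number is 1 throughout and so cannot serve as a block; the genotype comparison already matches arrays by week.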
